A study of Mus musculus with 18 samples.

Results

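Epithelial cells of the small intestinal (SI) crypt that the study places beyond the border of the stem cell zone were compared with cells it places at that border. This was done by RNA sequencing of cells sorted on the level of Lgr5-GFP, from which their position was inferred. The comparison holds 6 of the 18 libraries of the series, 3 of row >3 cells, which had low GFP, and 3 of border cells, which had medium GFP, and they were chosen by their sample titles alone. All groups came from untreated mice of the strain given as C57BL/6 and the genotype given as Lgr5_eGFP_Iris_creERT2, aged 8 to 20 weeks by the labels. These mice carry GFP and a tamoxifen-inducible Cre at the Lgr5 locus, which was not induced in the untreated mice. Cells were gated as live, EPCAM-positive and GFP-positive, so each library is a mixture of the epithelial cells with that GFP level, and the allele is expressed in patches of crypts only. The other 12 libraries are centre cells of the SI, with high GFP, and the 3 matching levels of the large intestine (LI), and they share the estimate of the spread behind every test and are described only where a comparison needs them.

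At the base of an SI crypt, Lgr5-positive stem cells sit between Paneth cells and depend on Wnt signals, which R-spondin and its receptors of the Lgr family strengthen. Cells that are pushed out of this zone divide several times as transit-amplifying cells, stop dividing and take an absorptive fate, as enterocytes, or a secretory fate, as goblet, enteroendocrine, tuft or Paneth cells. Notch signalling between neighbours favours the absorptive fate, and Eph receptors and ephrins keep cell types at their height along the crypt.

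Total counts per library lay between 15757652 and 31940965 in row >3 and between 8312093 and 21692974 in border cells, and between 16106 and 19530 genes had a count. Replicate 3 of both SI groups stood apart from replicates 1 and 2. Car1, a colonic carbonic anhydrase, was at 59.5, 215 and 38981 normalised counts in row >3 replicates 1 to 3 and at 0, 14.3 and 22796 in border replicates 1 to 3. The summed level of 19 genes of LI identity was 75647 and 48563 normalised counts in row >3 and border replicate 3 and 2977 to 4545 in the other 4 libraries. The summed level of 16 genes of SI identity was 22665 and 19351 in these libraries, 20898 to 64119 in the other 4 and 3814 to 6937 in all LI libraries. The LI genes summed to 40231 to 52511 in LI row >3 and 19259 to 28822 in LI border libraries, so row >3 and border replicate 3 of the SI were above every LI library of their level in the LI genes and above all LI libraries in the SI genes. Whether these 2 libraries hold cells of the LI or carry a crossed label was not tested, and values of replicate 3 stand under the label as given. Mitochondrial ribosomal RNA made up 29.4% and 27.6% of the counts of these 2 libraries, against 16% to 18.7% in the other 4. The replicate 2 libraries had transcripts of the Y-linked gene Ddx3y (918 and 776 normalised counts) and the others none. The counts of genes called between SI row >3 and border cells, over all genes and in the lists described, are therefore also given without the SI libraries of replicate 3. The labels do not say which mouse a replicate came from, so p-values measure only the spread between these libraries. In such bulk samples fewer cells of a type and less RNA per cell cannot be told apart.

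Of 26717 genes tested, 2612 (9.78%) were called different between row >3 and border cells, 1454 (5.44%) higher and 1158 (4.33%) lower in row >3 (edgeR's quasi-likelihood test on all 18 libraries with the replicate number as a block, Benjamini-Hochberg adjusted p under 0.05). With the 6 row >3 and border libraries alone 985 were called with the block, 931 of them among the 2612, and 0 without it, where 2670 had an unadjusted p under 0.05. In the fit of all libraries 5353 genes (20%) had an unadjusted p under 0.05, 10.9% higher and 9.09% lower. Of the 2612 genes called 55.7% were higher. With library size as the only scaling 31.9% of the genes called were higher. The changes were mostly small: the median absolute log2 fold change of the called genes was 0.78, and 842 of them exceeded 1. At the thresholds of the study's volcano plots, which ask for an unadjusted p below 0.001 and an absolute log2 fold change above 2, 38 genes (0.142%) were higher and 55 (0.206%) were lower. The 3 libraries of each group did not overlap in 2069 genes that were higher (7.74%) and 1366 that were lower (5.11%). The direction was the same in all 3 replicate pairs for 4361 higher (16.3%) and 3584 lower genes (13.4%).

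The number of genes called depended on single libraries. It was 891 without row >3 replicate 1, 1509 without border replicate 1 and 1285 without border replicate 2. Without all SI libraries of replicate 3 it was 3284, with 2062 higher and 1222 lower, and 2202 of these were among the 2612. The genes past the thresholds of the volcano plots numbered 45 without row >3 replicate 1, 58 without border replicate 2, 235 without row >3 replicate 3 and 170 without border replicate 3. Without the replicate block 431 genes were called, so most calls rest on comparing libraries of the same number. Lists lost calls in the same way. Over all genes tested DESeq2 called 3543 with the block and 1304 without it. DESeq2 called 9 absorptive regulators, 11 xenobiotic genes, 10 immediate-early genes and 7 genes of fatty acid oxidation higher with the block and 1, 1, 2 and 0 without it. It called 6 antimicrobial, 5 enteroendocrine, 7 digestive enzyme, 10 fat absorption and 12 brush border genes higher with the block and 1, 1, 2, 3 and 5 without it. Called higher were also 37 glycan and 7 epithelial genes with the block and 19 and 3 without it. Called lower were 26 ribosome, 22 serine and nucleotide and 4 heat shock genes with the block and 11, 12 and 0 without it. No gene called in any of these fits and in the fit of all libraries changed its direction.

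**Figure D1:**
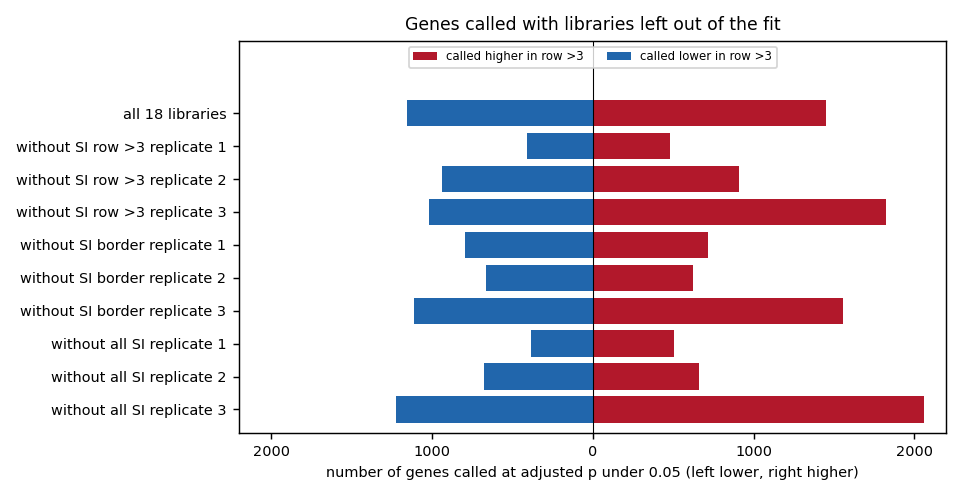
Number of genes called at an adjusted p under 0.05 between SI row >3 and border cells (horizontal axis, lower to the left, higher to the right) in the fit of all 18 libraries and with the named libraries left out. The total ran from 890 without all SI libraries of replicate 1 to 3284 without those of replicate 3.

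The gene that drives the sort was checked first. Lgr5 (chr10:115450311-115587780, minus strand, GRCm38), which encodes an R-spondin receptor, was at 169.6, 279.6 and 28.1 normalised counts in row >3 replicates 1 to 3 and at 1610, 2028 and 157 in border replicates 1 to 3. GFP is read from this locus, so its fall is what the sort selected and no finding. It was lower in row >3 in each pair, but border replicate 3 lay below row >3 replicates 1 and 2, so the groups overlapped. Its log2 fold change was -2.80 ± 0.61 (SE; adjusted p = 0.0227), and the call was lost without row >3 replicate 1 or 2 or border replicate 1 or 2 (adjusted p from 0.0737 to 0.155).

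Genes of crypt base stem cells fell. Of the 16 tested, 13 were called lower (4.33% of all genes tested were) and 0 higher, with a median log2 fold change of -1.58, against 0.00 over all genes tested and 0.02 over the 13150 genes with a mean CPM (counts scaled to the library total) of 1 or more. Without Lgr5 itself 12 of 15 were called lower, with a median of -1.52. Ascl2, the transcription factor that sets stem cell identity, was at 25.3, 32.4 and 1.56 normalised counts in row >3 and at 137, 166 and 46.3 in border cells. All row >3 libraries lay below all border libraries, and the log2 fold change was -2.41 ± 0.42 (adjusted p = 0.00126). Msi1, an RNA-binding protein of stem cells, was at 232, 494 and 112 in row >3 and 1521, 1673 and 261 in border cells (log2 fold change -1.95 ± 0.27, adjusted p = 0.000398). It was lower in each pair, but the groups overlapped because both replicate 3 libraries were low. Tnfrsf19, a Wnt-induced receptor, fell by 2.82 on the log2 scale (adjusted p = 0.000854), although its pair of replicate 3 went the other way, with 20.3 normalised counts in row >3 and 2.10 in border cells.

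Other stem cell genes fell with less certainty. Olfm4, a secreted glycoprotein of stem cells, was at 3733, 8204 and 194 normalised counts in row >3 and 24346, 54428 and 1030 in border cells (log2 fold change -2.56 ± 0.64, adjusted p = 0.0415). Its call was lost without row >3 replicate 1 or 2 or 3 or border replicate 1 or 2 (adjusted p from 0.0938 to 0.234). Smoc2, a secreted matrix protein of stem cells, was at 908, 1238 and 131 and 2852, 4043 and 308 (log2 fold change -1.52 ± 0.40, adjusted p = 0.0451). That call was lost without row >3 replicate 1 or 2 or 3 or border replicate 1 or 2 (adjusted p from 0.107 to 0.239). For both genes each pair was lower in row >3, and the replicate 3 libraries lay far below the others of their group. The 3 members not called were Prom1 (log2 fold change 0.05), which encodes CD133, Pdgfa (-0.92), a growth factor whose locus overlaps another gene and which was called without all SI libraries of replicate 3 (-1.61, adjusted p = 1.49e-06), and Gkn3 (-2.92), which was near 0 in most libraries. The count of lower stem cell genes was 9 without row >3 replicate 1 or 2 or border replicate 1 or 2, and 14 without all SI libraries of replicate 3.

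**Figure D2:**
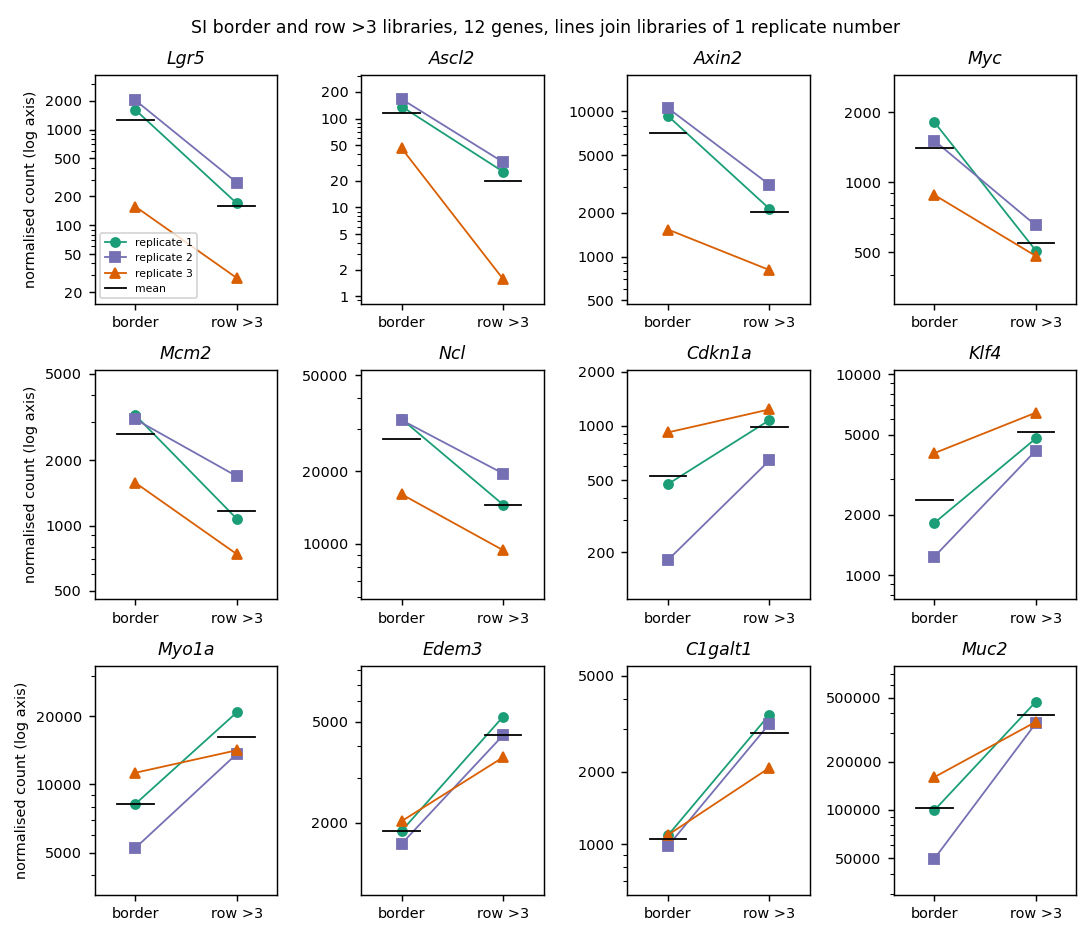
Normalised counts (vertical log axis, a separate scale in each panel) of 12 genes in the SI border and row >3 libraries, with a line for each replicate number and black bars for the group means. Lgr5 to Ncl went down and Cdkn1a to Muc2 went up in each of the 3 pairs, and the replicate 3 libraries were lowest for Lgr5, with 157 normalised counts in border and 28.1 in row >3 cells.

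Target genes and feedback regulators of Wnt signalling fell in part. Of 21 tested, 10 were called lower and 1 higher (4.33% and 5.44% of all genes tested were). Their median log2 fold change was -0.89, and without all SI libraries of replicate 3 11 were lower and 1 higher. Axin2, a negative feedback regulator and general Wnt target, was at 2134, 3129 and 807 normalised counts in row >3 and at 9296, 10536 and 1535 in border cells (log2 fold change -1.66 ± 0.28, adjusted p = 0.00522). Each pair was lower in row >3, the groups overlapped through border replicate 3, and the call was lost without row >3 replicate 1 (adjusted p = 0.0707). The transcription factor Tcf7 was at 73.9, 123 and 56.2 in row >3 and 328, 337 and 157 in border cells, with no overlap, and its log2 fold change was -1.67 ± 0.23 (adjusted p = 0.000203). Apcdd1, a Wnt inhibitor induced by the pathway, fell by 3.05 on the log2 scale (adjusted p = 0.000587), from 70.8, 113 and 13.7 to 8.89, 13.4 and 3.12 normalised counts.

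Cd44, a hyaluronan receptor of the crypt base, was at 485, 969.9 and 1638 normalised counts in row >3 and 1910, 3765 and 3359 in border cells and fell by 1.63 (adjusted p = 0.00315). The 3 row >3 libraries lay below the 3 border libraries, with replicate 3 the highest of the row >3 group. Myc, which drives growth and ribosome synthesis, was at 509, 653 and 482 and 1813, 1510 and 883 (log2 fold change -1.30 ± 0.17, adjusted p = 0.000185), again with no overlap. Ccnd1, which encodes cyclin D1 and overlaps a neighbouring gene, was at 2734, 2818 and 1029 in row >3 and 2937, 3252 and 1750 in border cells and was not called (log2 fold change -0.31 ± 0.14, adjusted p = 0.208). The 1 member that rose was Fzd5, a Frizzled Wnt receptor, with 3827, 2984 and 2696 normalised counts in row >3 and 2349, 2244 and 1979 in border cells (log2 fold change 0.53 ± 0.11, adjusted p = 0.00457). It was not called without row >3 replicate 1 (adjusted p = 0.0533).

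Eph receptors and their ephrin ligands were called in both directions. Of 13 tested, 4 were called lower and 2 higher (4.33% and 5.44% of all genes tested were). The counts were the same without all SI libraries of replicate 3, but 2 and 0 without row >3 replicate 1 or border replicate 2. Ephb3, a receptor of the crypt base, was at 459, 524 and 387 normalised counts in row >3 and 1313, 1997 and 643 in border cells, without overlap (log2 fold change -1.45 ± 0.21, adjusted p = 0.000398). Ephb2 was at 2965, 3276 and 3041 and 3436, 3966 and 3544, which did not overlap either, but its log2 fold change was -0.23 ± 0.10 and it was not called (adjusted p = 0.207). The ligand Efnb1 rose, from 1138, 1047 and 1368 to 1689, 1631 and 1714 normalised counts (log2 fold change 0.52 ± 0.12, adjusted p = 0.00892), a call lost without row >3 replicate 1 or border replicate 2 (adjusted p from 0.0615 to 0.0829). Efnb2, the other ligand of these receptors that was called, was at 1834, 1049 and 2268 in row >3 and 899.6, 334 and 1917 in border cells (log2 fold change 0.93 ± 0.22, adjusted p = 0.0126). It was higher in each pair, and its call was lost without row >3 replicate 1 or 2 or border replicate 1 or 2 (adjusted p from 0.0626 to 0.111). Efnb3 had at most 16.5 normalised counts in any of the 6 libraries and was not called (adjusted p = 0.976). The ligand Efna4, whose locus overlaps another gene, went the other way and fell by 1.71 (adjusted p = 0.00169).

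In the Notch pathway 5 of 11 genes were called lower and 2 higher (4.33% and 5.44% of all genes tested were). The lower count was 2 without row >3 replicate 2 or border replicate 2 or 3 and 3 without row >3 replicate 1 or 3, and the higher count was 0 without row >3 replicate 1 or 2 or border replicate 1 or 2. There were 3 lower and 3 higher without all SI libraries of replicate 3. The receptor Notch1 was at 698, 871 and 676 normalised counts in row >3 and 2175, 2867 and 1012 in border cells (log2 fold change -1.36 ± 0.23, adjusted p = 0.0023). Notch2 was at 583, 736 and 304 and 1818, 1927 and 742 (log2 fold change -1.43 ± 0.17, adjusted p = 6.4e-05). For both receptors every row >3 library lay below every border library. Hes1, the main target of Notch in the crypt, fell by 0.73 (adjusted p = 0.0161), from 680.0, 1059 and 798 to 497, 472 and 589 normalised counts, and its call was lost without row >3 replicate 1 or 2 or border replicate 2 or 3 (adjusted p from 0.0513 to 0.205). The ligand Dll1, which secretory precursors display, rose, from 1195, 1253 and 1001 to 2180, 2416 and 1141 normalised counts (log2 fold change 0.73 ± 0.19, adjusted p = 0.0184), and lost its call without row >3 replicate 1 or 2 or border replicate 1 or 2 (adjusted p from 0.074 to 0.212). Of 11 BMP receptors and targets 1 was called higher and 0 lower, against 5.44% and 4.33% of all genes tested. There were 4 higher without row >3 replicate 3 or all SI libraries of replicate 3, against 6.87% and 7.88% of all genes tested. The 1 called was Id3, a target gene, with 362, 296 and 404 normalised counts in row >3 and 94.4, 144 and 212 in border cells (log2 fold change 1.18 ± 0.29, adjusted p = 0.0112). Its groups did not overlap, and its call was lost without row >3 replicate 1 or border replicate 1 (adjusted p from 0.0648 to 0.0898).

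Among 9 genes of reserve and regenerative stem cells, 2 were called lower and 1 higher (4.33% and 5.44% of all genes tested were), and 1 was lower without row >3 replicate 1 or 2 or border replicate 1. There were 2 lower and 0 higher without all SI libraries of replicate 3. Mex3a, an RNA-binding protein of slowly cycling progenitors, fell by 2.18 (adjusted p = 6.79e-05), from 267, 518 and 159.9 to 80.0, 102 and 21.9 normalised counts, without overlap. Hopx (log2 fold change -0.27 ± 0.15, adjusted p = 0.376) and Bmi1 (-0.52 ± 0.18, adjusted p = 0.0845), which marked reserve stem cells in earlier lineage studies, were not called.

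**Figure D3:**
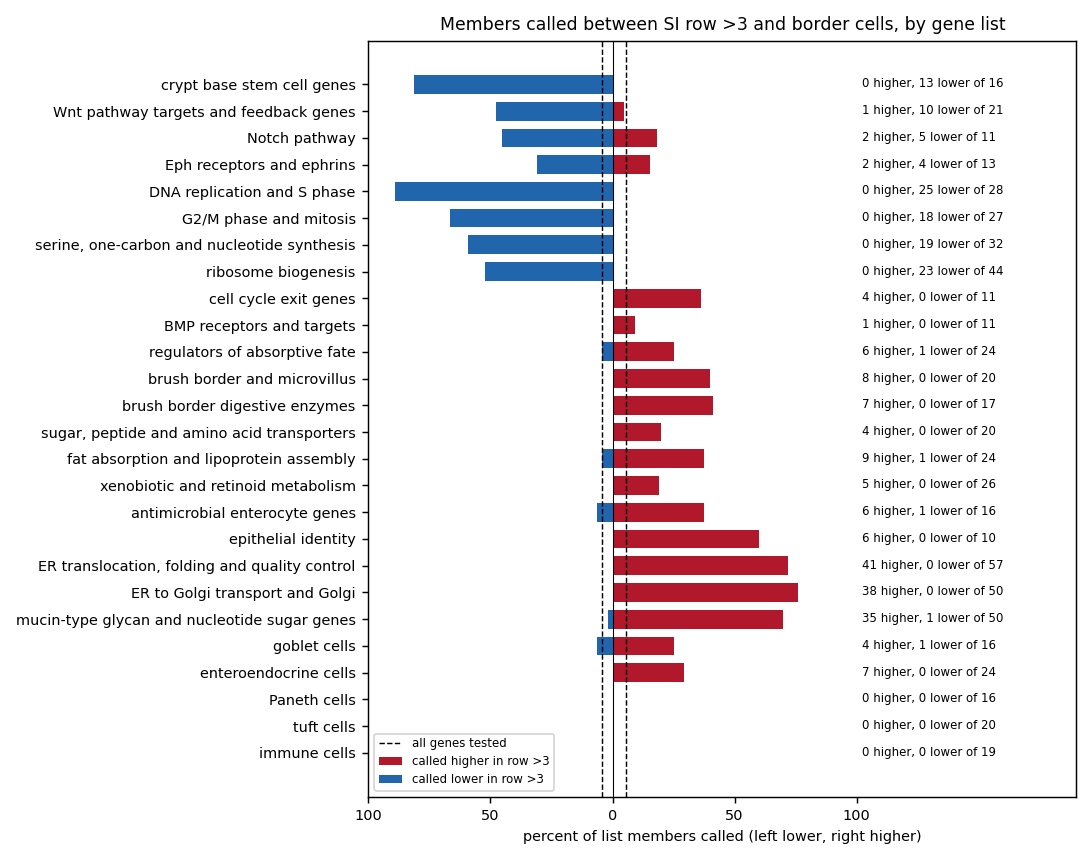
Percent of the tested members of 26 gene lists that were called lower (left, blue) or higher (right, red) in SI row >3 than in border cells, with the counts at the right and dashed lines at 5.44% and 4.33% for all genes tested. More members were called lower than higher in stem cell, Wnt, replication, mitosis, nucleotide and ribosome lists, with 25 of 28 replication genes lower. More were called higher than lower in secretory pathway, goblet, enteroendocrine, absorptive and epithelial lists, with 38 of 50 ER to Golgi genes higher.

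Proliferation genes fell. Of 28 genes of DNA replication and S phase, 25 were called lower (4.33% of all genes tested were) and 0 higher. All 28 had a negative log2 fold change and the median was -1.0. Of 27 genes of the G2/M phase and mitosis, 18 were called lower and 0 higher, all 27 were negative and the median was -0.61. The S phase count was between 16, without row >3 replicate 1, and 25 with a single library left out and 23 without all SI libraries of replicate 3. The G2/M count was 6 without row >3 replicate 1, 8 without row >3 replicate 3, 9 without border replicate 3 and 9 without all SI libraries of replicate 3, where the median was -0.35. With DESeq2 24 G2/M genes were called lower with the replicate block and 1 without it, and 26 and 19 S phase genes.

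Promoters of cell cycle genes are known for short elements that their regulators bind. Those shown belong to genes that were called, and the first match is shown where a promoter has several upstream of its start site. E2F factors bind TTTCGCGC or TTTGGCGC at S phase genes, and these letters were found on either strand, in the 250 bases before and 50 after the start, in 7 of 23 S phase promoters (30.4%) and in 206 of 14033 promoters of genes tested (1.47%). The cell cycle homology region, TTTGAA, was in 17 of 23 G2/M promoters (73.9%) and in 2197 of 14033 (15.7%). A match is a description of the letters only. The sequences are from RefSeq on GRCm38.p6, given 5′ to 3′ on the strand of the gene, with the match in capitals, which reads GCGCCAAA or TTCAAA where it lies on the other strand.
Mcm5, chr8:75109316-75109403, plus strand: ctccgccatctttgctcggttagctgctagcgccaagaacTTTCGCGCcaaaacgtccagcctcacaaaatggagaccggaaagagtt
Mcm6, chr1:128359768-128359855, minus strand: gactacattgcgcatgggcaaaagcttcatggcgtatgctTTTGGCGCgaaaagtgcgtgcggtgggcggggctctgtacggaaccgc
Pola1, chrX:93632246-93632333, minus strand: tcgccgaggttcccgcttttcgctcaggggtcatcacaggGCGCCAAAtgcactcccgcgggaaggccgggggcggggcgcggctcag
Prc1, chr7:80294406-80294475, plus strand: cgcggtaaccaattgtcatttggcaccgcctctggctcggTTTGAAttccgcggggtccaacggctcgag
Kif11, chr19:37376323-37376381, plus strand: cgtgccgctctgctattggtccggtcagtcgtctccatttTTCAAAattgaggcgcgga

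The 2 elements of the subunits of the replicative helicase lie at different distances, starting 153 bases before the start of Mcm5 and 110 before that of Mcm6. Mcm5 was at 868, 1285 and 546 normalised counts in row >3 and 2000, 2102 and 1050 in border cells (log2 fold change -0.91 ± 0.17, adjusted p = 0.00186). Mcm6 was at 1529, 2349 and 1136 and 3806, 4624 and 2177 (log2 fold change -1.06 ± 0.18, adjusted p = 0.00154). Both were lower in row >3 in each pair, and the groups overlapped because replicate 2 of row >3 was above replicate 3 of border cells. Pola1, the catalytic subunit of DNA polymerase alpha, was at 770.1, 1301 and 632 in row >3 and 2238, 2503 and 1276 in border cells (log2 fold change -1.14 ± 0.15, adjusted p = 0.000191). Mcm2 was at 1074, 1689 and 738 and 3228, 3089 and 1575 (log2 fold change -1.16 ± 0.14, adjusted p = 8.81e-05), and Cdt1, which loads the helicase, fell by 1.25 (adjusted p = 0.000533). The chromatin assembly subunit Chaf1b fell by 1.20 (adjusted p = 0.000979). The calls of these 6 genes held with each single library left out.

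Among mitotic genes, Prc1, a bundler of spindle microtubules that overlaps a neighbouring gene, was at 1375, 2058 and 734 normalised counts in row >3 and 2073, 2937 and 1827 in border cells (log2 fold change -0.76 ± 0.14, adjusted p = 0.00192). Kif11, the motor that separates spindle poles, was at 1544, 2103 and 791 and 2092, 2846 and 1818 (log2 fold change -0.65 ± 0.14, adjusted p = 0.00573). In both genes the lowest value was row >3 replicate 3. Bub1b, of the spindle checkpoint, fell by 0.85 without overlap (adjusted p = 0.000501), and Cenpf, of the kinetochore, fell by 0.80 (adjusted p = 0.000482). Among the members not called were Rrm2, a subunit of ribonucleotide reductase (log2 fold change -0.60 ± 0.21, adjusted p = 0.0838) and the cyclin gene Ccna2 (-0.42 ± 0.17, adjusted p = 0.149), whose locus overlaps another gene. The G1 cyclin genes Ccne1 (-0.08 ± 0.33, adjusted p = 1) and Ccne2 (-0.64 ± 0.30, adjusted p = 0.238) were not called either.

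The 15 genes with the smallest adjusted p among those lower in row >3 in each pair began with Cdca7. Cdca7 (chr2:72476159-72486893, plus strand, GRCm38), a Myc target and chromatin regulator, was at 903, 1463 and 540.1 normalised counts in row >3 and 3554, 4430 and 1400 in border cells. Its log2 fold change was -1.65 ± 0.15 (adjusted p = 1.17e-05), it fell in each pair, and the groups overlapped by 1 library, row >3 replicate 2. Stmn1 (chr4:134468320-134473843, plus strand), a regulator of microtubules, was at 1321, 2200 and 692 and 3837, 5083 and 1826 (log2 fold change -1.36 ± 0.12, adjusted p = 1.17e-05), and overlapped in the same way. Phgdh (chr3:98313170-98339990, minus strand), the first enzyme of serine synthesis, was at 90.3, 82.9 and 57.8 in row >3 and 458, 382 and 232 in border cells, with no overlap (log2 fold change -2.21 ± 0.21, adjusted p = 1.28e-05). Gas7, which binds actin, was at 105, 168 and 176 and 692, 632 and 504 (log2 fold change -2.03 ± 0.19, adjusted p = 1.28e-05), also with no overlap.

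The other 11 of these 15 genes included Tubb5, a beta tubulin (log2 fold change -1.02), the chromatin proteins Hmga1 (-1.15), Hmgn1 (-1.12) and Nap1l1 (-1.13), the paralogue Cdca7l (-1.58), the transcription factor Dach1 (-1.63) and the actin regulators Cnn3 (-1.42) and Fmnl2 (-2.30). Kcnq1, a potassium channel subunit whose locus overlaps another gene, had -1.23, Bcl7a, a subunit of chromatin remodellers, -1.08, and Fstl4, a follistatin-like protein, -3.50. The calls of all 15 genes held with each single library left out, with an adjusted p of 0.00309 at most.

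Genes for making ribosomes and nucleotides fell in part, in 2 lists that were made after values had been seen. Over all genes tested 4.33% were called lower. Of 44 genes of ribosome biogenesis, 23 were called lower and 0 higher, with a median log2 fold change of -0.55, and the count was 14 without row >3 replicate 1 or border replicate 1 and 25 without all SI libraries of replicate 3. Ncl, which encodes the nucleolar protein nucleolin, was at 14509, 19531 and 9388 normalised counts in row >3 and 32846, 32511 and 16009 in border cells (log2 fold change -0.88 ± 0.11, adjusted p = 9.91e-05). Rrp1b, another nucleolar protein, was at 397, 469 and 301 and 1398, 1152 and 511 (log2 fold change -1.32 ± 0.16, adjusted p = 9.91e-05). Rrp1b did not overlap between the groups, and Ncl did through border replicate 3. Of 32 genes of serine, one-carbon and nucleotide synthesis, 19 were called lower and 0 higher, with a median of -0.60, and the count was 10 without row >3 replicate 1 or border replicate 2 and 16 without all SI libraries of replicate 3. Shmt1, which passes a carbon from serine to folate and overlaps another gene, was at 698, 928 and 787 and 1787, 2428 and 1694 (log2 fold change -1.28 ± 0.15, adjusted p = 6.42e-05). Paics, an enzyme of purine synthesis that shares a divergent promoter with Ppat, fell by 1.14 (adjusted p = 0.000564). Cad, the enzyme that opens pyrimidine synthesis, had -0.46 ± 0.15 and was not called (adjusted p = 0.0579).

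Inhibitors of the cell cycle rose in part. Of 11 cell cycle exit genes, 4 were called higher (5.44% of all genes tested were) and 0 lower, with a median log2 fold change of 0.16. The count was 0 without border replicate 2, 1 without row >3 replicate 1, 2 without border replicate 1 and 5 without all SI libraries of replicate 3. Cdkn1a, which encodes the inhibitor p21, was at 1078, 645 and 1235 normalised counts in row >3 and 477, 181 and 922 in border cells (log2 fold change 1.04 ± 0.22, adjusted p = 0.00522). It was higher in each pair, the groups overlapped, and the call was lost without border replicate 2 (adjusted p = 0.0724). Rb1, which encodes the retinoblastoma protein and overlaps another gene, rose by 0.74 (adjusted p = 0.0107), and that call was lost without row >3 replicate 1 or border replicate 1 or 2 (adjusted p from 0.0821 to 0.135).

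Immediate-early genes, which growth signals and the handling of cells induce within minutes, had a median log2 fold change of 0.46. Of 19 tested, 9 were called higher and 1, Myc, lower (5.44% and 4.33% of all genes tested were). The higher count was 2 without row >3 replicate 1 or border replicate 2, 3 without row >3 replicate 2 and 5 without border replicate 1. There were 11 higher and 1 lower without all SI libraries of replicate 3. Fos was at 4452, 4234 and 6252 normalised counts in row >3 and 2701, 1821 and 4839 in border cells (log2 fold change 0.77 ± 0.16, adjusted p = 0.00443), and Klf6 was at 2335, 1445 and 2785 and 1138, 942 and 1856 (log2 fold change 0.74 ± 0.15, adjusted p = 0.00381). Klf2 was at 155, 86.1 and 73.4 and 47.2, 25.9 and 17.9, without overlap (log2 fold change 1.87 ± 0.45, adjusted p = 0.0101), and its call was lost without row >3 replicate 1 or border replicate 2 (adjusted p from 0.0613 to 0.12). The part of cell handling in these values was not tested.

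**Figure D4:**
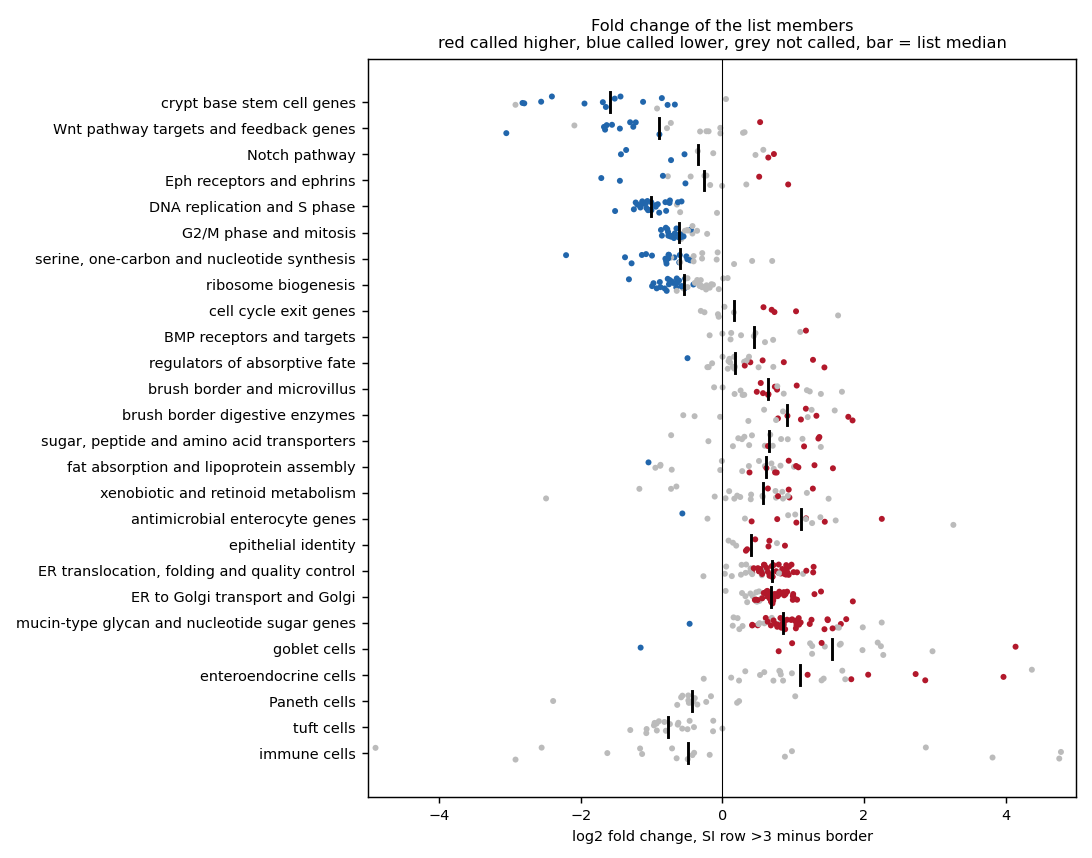
Log2 fold change of row >3 against border cells (horizontal axis) for the tested members of the same 26 lists, in red where called higher, blue where called lower and grey where not called, with black bars at the list medians. The axis ends at 5 in either direction and leaves out 4 values beyond it. Replication genes lay together around a median of -1.0, while goblet and enteroendocrine genes spread widely around medians of 1.55 and 1.09.

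Genes of absorptive cells rose in part. Without all SI libraries of replicate 3 7.88% of all genes tested were called higher, against 5.44% with them, and the counts of these lists in that setting are to be read beside this rise. Of 20 genes of the brush border, the layer of microvilli on enterocytes, 8 were called higher (5.44% of all genes tested were) and 0 lower, with a median log2 fold change of 0.65. The count was 3 without row >3 replicate 1, 4 without border replicate 1 or 2, 14 without row >3 replicate 3 and 15 without all SI libraries of replicate 3. Myo1a, the myosin that ties the actin core of microvilli to the membrane, was at 20765, 13637 and 14145 normalised counts in row >3 and 8207, 5256 and 11263 in border cells, without overlap (log2 fold change 1.05 ± 0.19, adjusted p = 0.00335). Vil1, the actin bundler villin, was at 16770, 10896 and 12058 and 8505, 6566 and 10329 (log2 fold change 0.65 ± 0.13, adjusted p = 0.00281). For both genes the rise was smallest in the pair of replicate 3, whose border library was the highest of its group. Myo1d, another myosin of microvilli, rose by 0.74 (adjusted p = 0.000499). Krt20, a keratin of differentiated cells, was at 14969, 9301 and 7448 and 3145, 1649 and 5913, which did not overlap, but was not called (log2 fold change 1.69 ± 0.49, adjusted p = 0.0712), and without all SI libraries of replicate 3 it was (2.41, adjusted p = 0.0101).

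Among 17 digestive enzymes of the brush border 7 were called higher (5.44% of all genes tested were) and 0 lower, with a median of 0.92. The count was 1 without border replicate 1, 3 without row >3 replicate 1 and 9 without all SI libraries of replicate 3. Enpp3, an ectonucleotidase, was at 519, 411 and 123 normalised counts in row >3 and 161, 93.3 and 50.5 in border cells (log2 fold change 1.84 ± 0.37, adjusted p = 0.00252). Sis, which encodes sucrase-isomaltase, was at 7685, 1320 and 3067 and 607, 451 and 2150 (log2 fold change 1.78 ± 0.47, adjusted p = 0.0391), and row >3 replicate 1 was far above the other libraries. The Sis call was lost without row >3 replicate 2 or border replicate 1 or 2 (adjusted p from 0.0509 to 0.157). Anpep, aminopeptidase N, was at 22496, 3242 and 11119 and 4238, 1986 and 8072 and was not called (log2 fold change 1.21 ± 0.35, adjusted p = 0.0722), but was called without all SI libraries of replicate 3 (1.67, adjusted p = 0.031). Of 20 transporters of sugars, peptides and amino acids 4 were called higher, with a median of 0.66, a count of 1 without row >3 replicate 1 or border replicate 1 or 2, and a count of 6 without border replicate 3 or all SI libraries of replicate 3. Slc43a2, an amino acid exporter, rose from 1462, 859 and 1323 to 4855, 2669 and 1861 normalised counts (log2 fold change 1.36 ± 0.25, adjusted p = 0.00378).

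Of 24 genes of fat absorption and lipoprotein assembly 9 were called higher and 1 lower (5.44% and 4.33% of all genes tested were), with a median of 0.61. Of these, 0 were called higher without row >3 replicate 1 or border replicate 1, 1 without border replicate 2 and 11 without all SI libraries of replicate 3, while 3 were lower without row >3 replicate 2. Npc1l1, the cholesterol importer, was at 3038, 920.1 and 1057 normalised counts in row >3 and 708, 429 and 729 in border cells (log2 fold change 1.30 ± 0.28, adjusted p = 0.00792), a call lost without row >3 replicate 1 or border replicate 1 (adjusted p from 0.0701 to 0.072). The 1 lower member was Fabp1, a fatty acid binding protein, with 335, 172 and 269 in row >3 and 937, 238 and 602 in border cells (log2 fold change -1.04 ± 0.26, adjusted p = 0.0127), a call lost without row >3 replicate 1 or 3 or border replicate 1 (adjusted p from 0.0765 to 0.24). Apob, the core protein of chylomicrons, was not called (log2 fold change 0.60 ± 0.33, adjusted p = 0.397). Of 26 xenobiotic and retinoid enzymes and carriers 5 were called higher and 0 lower, and 13 higher and 1 lower without all SI libraries of replicate 3. In this list the count was 2 without row >3 replicate 1 or border replicate 1, 1 without border replicate 2, 8 without row >3 replicate 3 and 11 without border replicate 3. Cyp4f14, a cytochrome P450, rose by 1.28 (adjusted p = 0.00543), with 2535, 605 and 1961 normalised counts in row >3 and 477, 321 and 1274 in border cells.

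Most regulators of absorptive fate were not called. Of 24 tested, 6 were called higher and 1 lower (5.44% and 4.33% of all genes tested were), with a median log2 fold change of 0.17. The higher count was 1 without row >3 replicate 1, 2 without row >3 replicate 2 or border replicate 1 or 2, and 9 without row >3 replicate 3 or all SI libraries of replicate 3. Klf4, a factor of post-mitotic cells, was at 4787, 4168 and 6430 normalised counts in row >3 and 1820, 1236 and 4046 in border cells (log2 fold change 1.28 ± 0.20, adjusted p = 0.00127). The groups did not overlap, and the call held with each single library left out. Maf rose by 1.44 (adjusted p = 0.0127), and its call was lost without row >3 replicate 1 or 2 or border replicate 1 or 2 (adjusted p from 0.0568 to 0.0851). Vdr, the vitamin D receptor, was the 1 that fell, from 5582, 7104 and 6912 to 4341, 4103 and 5420 (log2 fold change -0.49 ± 0.11, adjusted p = 0.00527), and lost its call without row >3 replicate 2 or border replicate 2 (adjusted p from 0.0566 to 0.0703). Hnf4a, a nuclear receptor that defines gut epithelium, was at 13594, 12513 and 10617 and 12271, 10912 and 10948 (log2 fold change 0.11 ± 0.09, adjusted p = 0.622). Its groups overlapped, and with library size as the only scaling its value was -0.04.

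Of 16 antimicrobial genes of enterocytes 6 were called higher and 1 lower (5.44% and 4.33% of all genes tested were), with a median of 1.11. The higher count was 2 without row >3 replicate 1 or border replicate 1 and 4 without row >3 replicate 2 or border replicate 2. There were 7 higher and 1 lower without all SI libraries of replicate 3. Pigr, which carries immunoglobulin A into the lumen, was at 83304, 75390 and 76710 normalised counts in row >3 and 52739, 58792 and 67409 in border cells, without overlap (log2 fold change 0.41 ± 0.08, adjusted p = 0.0033). Duox2, which makes hydrogen peroxide at the apical membrane, rose by 0.77 (adjusted p = 0.000962). Lypd8, a secreted protein that binds bacterial flagella, was at 25344, 14130 and 25228 and 5705, 4365 and 16426 (log2 fold change 1.45 ± 0.32, adjusted p = 0.0243), and its call was lost without row >3 replicate 1 or 2 or border replicate 1 or 2 (adjusted p from 0.0679 to 0.118). The lower member was the sensor Nlrp6 (log2 fold change -0.57 ± 0.12, adjusted p = 0.00428), whose call was lost without row >3 replicate 2 or border replicate 2 (adjusted p from 0.0501 to 0.0624). The lectin Reg3g, at 17342, 7644 and 2496 and 3440, 2517 and 1945, was not called (adjusted p = 0.103), and without all SI libraries of replicate 3 it was (log2 fold change 2.01, adjusted p = 0.000239).

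Genes of the secretory pathway rose, in 3 lists that were made after values had been seen. In this pathway proteins enter the endoplasmic reticulum (ER) through a channel, fold with the help of chaperones, pass quality control and travel to the Golgi, where sugars are added. Of 57 genes of ER translocation, folding and quality control, 41 were called higher (5.44% of all genes tested were) and 0 lower, with a median log2 fold change of 0.70. Without overlap 26 were higher (7.74% of all genes tested were). Of 50 genes of transport from ER to Golgi and of the Golgi, 38 were called higher and 0 lower, with a median of 0.69 and 37 without overlap. The ER count was 21 without row >3 replicate 1 and 27 without border replicate 1 or 2, and 48 without all SI libraries of replicate 3, and the ER to Golgi count was between 26 and 45 with a single library left out, lowest without row >3 replicate 1 and border replicate 2, and 46 without all SI libraries of replicate 3.

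Promoters of several ER genes carry the ER stress response element, CCAAT and CCACG with 9 bases of any kind between them, to which factors of the unfolded protein response bind. It was found on either strand in 9 of the 45 ER list promoters that were searched (20%) and in 26 of the 14033 promoters searched (0.185%). A match describes the letters only, and the ER list was made after values had been seen. The 4 shown belong to genes that were called, the match nearer the start is shown for Hsp90b1, which has 2, the match is in capitals, which runs from CGTGG to ATTGG on the other strand, and the build, strand and reading direction are as above.
Hspa5, chr2:34771985-34772083, plus strand: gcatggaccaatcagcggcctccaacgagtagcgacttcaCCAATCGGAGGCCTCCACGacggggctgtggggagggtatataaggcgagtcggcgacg
Dnajc3, chr14:118937787-118937885, plus strand: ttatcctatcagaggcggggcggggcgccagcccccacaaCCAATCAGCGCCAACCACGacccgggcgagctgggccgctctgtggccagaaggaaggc
Syvn1, chr19:6046492-6046575, plus strand: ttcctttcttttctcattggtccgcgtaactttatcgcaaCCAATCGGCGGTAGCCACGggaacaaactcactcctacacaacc
Hsp90b1, chr10:86705493-86705591, minus strand: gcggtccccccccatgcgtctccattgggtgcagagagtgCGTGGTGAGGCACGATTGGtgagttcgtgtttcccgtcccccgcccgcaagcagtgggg

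Hspa5, the main ER chaperone, was at 23751, 22112 and 9003 normalised counts in row >3 and 11501, 8966 and 7307 in border cells (log2 fold change 0.92 ± 0.14, adjusted p = 0.000535). Row >3 replicates 1 and 2 were above all border libraries, and row >3 replicate 3 was not. Dnajc3, its co-chaperone, was at 4506, 3764 and 2354 and 1797, 1677 and 1842, without overlap (log2 fold change 0.98 ± 0.15, adjusted p = 0.000416). Syvn1, the ubiquitin ligase of ER-associated degradation, was at 1722, 1223 and 1241 and 808, 591 and 886 (log2 fold change 0.88 ± 0.14, adjusted p = 0.000587), also without overlap. Hsp90b1, the ER form of HSP90, rose by 0.54 (adjusted p = 0.00555), and its call was lost without row >3 replicate 1 or 2 or border replicate 1 or 2 (adjusted p from 0.0523 to 0.0703). Of the other genes with the element, Pdia6, a disulfide isomerase (0.87, adjusted p = 0.00208), and the lectin chaperones Calr (0.70, adjusted p = 0.0061) and Canx (0.42, adjusted p = 0.0188) were called. The Calr call was lost without row >3 replicate 1 or border replicate 1 or 2 (adjusted p from 0.0543 to 0.0626), and the Canx call without row >3 replicate 1 or 2 or border replicate 1 or 2 (adjusted p from 0.0982 to 0.178). Creld2 was not called (0.87, adjusted p = 0.0524) but was called without all SI libraries of replicate 3 (1.10, adjusted p = 8.55e-05), and Derl3 was near 0.

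Xbp1, the transcription factor of the unfolded protein response, was at 4727, 4324 and 3100 normalised counts in row >3 and 2526, 1488 and 1971 in border cells, without overlap (log2 fold change 1.05 ± 0.17, adjusted p = 0.000881). Edem3 (chr1:151755371-151822051, plus strand), a mannosidase of quality control, was at 5229, 4420 and 3617 and 1856, 1651 and 2027 (log2 fold change 1.28 ± 0.14, adjusted p = 4.66e-05). The lowest row >3 library of Edem3 was well above the highest border library. Tram1, a helper of the translocation channel, was at 3033, 2732 and 1878 and 1084, 1076 and 1187 (log2 fold change 1.19 ± 0.15, adjusted p = 0.000147), and Sec61a1, the channel itself, rose by 0.90 (adjusted p = 0.000121). Manf, a secreted chaperone whose locus overlaps another gene, rose by 1.01 (adjusted p = 0.0014).

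On the way to the Golgi, Kdelr2, the receptor that returns ER proteins, was at 4146, 3879 and 2429 normalised counts in row >3 and 1301, 1331 and 1343 in border cells (log2 fold change 1.39 ± 0.17, adjusted p = 9.91e-05). The border libraries lay within 1301 to 1343, and all row >3 libraries were above them. Sec24a, of the vesicle coat, rose by 1.06 (adjusted p = 0.000547), Arl1, a Golgi GTPase, by 1.01 (adjusted p = 0.00035), and Tm9sf2, a Golgi membrane protein, by 1.05 (adjusted p = 0.000134). Tgoln1, a protein of the trans-Golgi, was at 5478, 4659 and 17172 and 2262, 2087 and 11484 (log2 fold change 1.0 ± 0.11, adjusted p = 5.19e-05). It was higher in each pair, while both replicate 3 libraries were above all others, so the groups overlapped.

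Enzymes that build the sugar chains of mucins rose as well. Of 50 genes of mucin-type glycans and nucleotide sugars 35 were called higher and 1 lower (5.44% and 4.33% of all genes tested were), with a median log2 fold change of 0.86. The higher count was 16 without row >3 replicate 1, 17 without border replicate 2, 21 without row >3 replicate 2, 23 without border replicate 1 and 39, with 0 lower, without all SI libraries of replicate 3. C1galt1, which makes the core 1 structure of mucin sugars, was at 3454, 3164 and 2076 normalised counts in row >3 and 1089, 984 and 1092 in border cells (log2 fold change 1.48 ± 0.20, adjusted p = 0.000398). Its chaperone C1galt1c1 was at 987, 996 and 713 and 229, 294 and 501 (log2 fold change 1.44 ± 0.23, adjusted p = 0.000646). Neither overlapped between the groups. Galnt7, which starts or extends mucin sugar chains, rose by 1.23 (adjusted p = 5.08e-05), and B3gnt3, which extends them, by 1.08 (adjusted p = 6.42e-05). Gfpt1, which controls the supply of hexosamine, was at 19927, 16123 and 19646 and 6016, 4334 and 11028 (log2 fold change 1.56 ± 0.30, adjusted p = 0.0114), and its call was lost without row >3 replicate 1 or 2 or border replicate 1 or 2 (adjusted p from 0.0523 to 0.074). The 1 member that fell was St6galnac2, a sialyltransferase (log2 fold change -0.46 ± 0.14, adjusted p = 0.0396), whose call was lost without row >3 replicate 1 or 3 or border replicate 1 or 2 or 3 (adjusted p from 0.0638 to 0.232). Gcnt3, which makes core 2 and core 4 structures, did not overlap, with 5557, 4201 and 6937 in row >3 and 1849, 1052 and 3618 in border cells, and was not called (log2 fold change 1.62 ± 0.50, adjusted p = 0.0927), but was called without all SI libraries of replicate 3 (1.82, adjusted p = 0.00133).

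Markers of goblet cells were higher in row >3 in all pairs for 15 of 16 genes (16.3% of all genes tested were) and without overlap for 14 (7.74%), yet only 4 were called higher and 1 lower (5.44% and 4.33%). Their median log2 fold change was 1.55, and 15 had an unadjusted p under 0.05 and a higher level in row >3 (10.9% of all genes tested did). Muc2, the gel-forming mucin, was at 471405, 346114 and 353346 normalised counts in row >3 and 99507, 49679 and 159922 in border cells (log2 fold change 2.27 ± 0.72, adjusted p = 0.101). Fcgbp, which is secreted with it, was at 490596, 305046 and 230160 and 62791, 25979 and 85510 (log2 fold change 2.97 ± 0.80, adjusted p = 0.0545). Muc2 and Fcgbp together held from 2.37% to 4.40% of all counts in the row >3 libraries and from 0.407% to 1.08% in the border libraries. Zg16, a lectin of goblet granules, was at 26549, 14448 and 12534 and 1565, 384 and 2397 (log2 fold change 4.14 ± 0.91, adjusted p = 0.0243), and its call was lost without row >3 replicate 1 or 2 or border replicate 1 or 2 or 3 (adjusted p from 0.0698 to 0.149). Gfi1, a factor of secretory precursors, rose by 1.40 (adjusted p = 0.0275) and lost its call without row >3 replicate 1 or 2 or border replicate 2 or 3 (adjusted p from 0.123 to 0.216). Clca1 went against the list and fell, from 559.6, 621 and 276 to 285, 253 and 101 normalised counts (log2 fold change -1.15 ± 0.21, adjusted p = 0.00143), with each single library left out as well.

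The number of goblet genes called depended on single libraries. Without row >3 replicate 3, or without all SI libraries of replicate 3, 13 of the 16 genes were called higher and 1 lower. Without row >3 replicate 1 or 2, or border replicate 2 or 3, 0 were higher, and without border replicate 1 there was 1. With DESeq2 14 were called higher with the replicate block and 6 without it. Without all SI libraries of replicate 3, the log2 fold change was 2.51 for Muc2 (adjusted p = 0.0152), 3.26 for Fcgbp (adjusted p = 0.00177) and 2.29 for Agr2, a disulfide isomerase needed for Muc2 (adjusted p = 0.0218). The summed level of the goblet genes was 689082 to 1097606 normalised counts in row >3 and 100623 to 302394 in border libraries, with no member at 0 in all 6. This level was higher in row >3 together with the ER, Golgi and glycan genes, and its part in their rise was not tested.

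Of 24 enteroendocrine genes 7 were called higher (5.44% of all genes tested were) and 0 lower, with a median of 1.09. Only 1 gene was higher without overlap, against 7.74% of all genes tested. With a single library left out the count was 3 to 5, and it was 3 without row >3 replicate 1 or border replicate 2 and 4 without row >3 replicate 2 or border replicate 3. There were 7 without all SI libraries of replicate 3. Those called included Nts, Ghrl, Cck, Tac1, Isl1 and Sst. Sst had the largest log2 fold change of any called gene, 10.4 (adjusted p = 0.0179). Its call was lost without row >3 replicate 2 or border replicate 2 (adjusted p from 0.0954 to 0.191). The summed level of these genes was 12460 to 53566 normalised counts in row >3 and 8247 to 24753 in border cells, highest in replicate 3 of each group. Chga, the general granin of these cells, was at 1934, 2319 and 244 normalised counts in row >3 and 1589, 1699 and 228 in border cells and was not called (log2 fold change 0.32 ± 0.53, adjusted p = 0.92).

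Paneth, tuft, immune and stromal cell markers gave no call in either direction with edgeR, over 16, 20, 19 and 18 genes. At an unadjusted p under 0.05 there were 1 higher and 1 lower Paneth gene, 2 lower immune genes and no other, against 20% of all genes tested in either direction. DESeq2 with the replicate block called 1 Paneth gene lower and none of the others. Without all SI libraries of replicate 3, edgeR called 1 Paneth, 3 tuft and 1 immune gene lower. Without all SI libraries of replicate 1 it called 1 Paneth gene higher. It called 1 tuft gene lower without row >3 replicate 2 and 1 immune gene lower without row >3 replicate 3. Lyz1, the lysozyme of Paneth cells, was at 18287, 23078 and 938 and 19706, 38744 and 2052, with both replicate 3 libraries lowest (log2 fold change -0.48 ± 0.82, adjusted p = 0.934). Dclk1, a tuft cell marker, was at 2787, 3132 and 727 and 7036, 2206 and 3528 (log2 fold change -0.62 ± 1.07, adjusted p = 0.929). The summed level of tuft genes was 3642 to 14525 normalised counts in row >3 and 11089 to 36230 in border cells, highest in border replicate 1. Ptprc, the pan-leukocyte gene CD45, was at 199, 171 and 39.0 and 555, 203 and 389, and the summed level of immune genes was 164 to 451 in row >3 and 438 to 1320 in border cells. Of the 19 immune genes 12 were under 10 normalised counts in all 6 libraries, with Itgax at 0 throughout and the T cell gene Cd3e at 9.44 at most, and of the 18 stromal genes 13 were, with 5 at 0. The epithelial label was met: Epcam, the gene of the sort, was at 22656, 19021 and 20725 and 14653, 17123 and 17648. Among epithelial genes 6 of 10 were called higher in row >3 (5.44% of all genes tested were) and 0 lower. The higher count was 3 without row >3 replicate 1 or border replicate 1 and 7 without all SI libraries of replicate 3. Krt19 rose by 0.88 (adjusted p = 0.0061), the claudin Cldn3 by 0.66 (adjusted p = 0.00224) and E-cadherin, Cdh1, by 0.33 (adjusted p = 0.0114), the last with its call lost without row >3 replicate 1 or border replicate 1 (adjusted p from 0.0991 to 0.105).

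Further genes with the smallest adjusted p among those higher in row >3 lay outside the secretory lists. Ido1, which breaks down tryptophan, was at 939.7, 54.5 and 301 normalised counts in row >3 and 44.9, 0 and 0 in border cells (log2 fold change 5.28 ± 0.53, adjusted p = 1.29e-05), so that its fold rests on 1 border library with counts. Capn9, a calpain of the digestive tract, was at 991, 934 and 448 and 191, 122 and 119, without overlap (log2 fold change 2.48 ± 0.30, adjusted p = 8.37e-05). Cx3cl1, the chemokine fractalkine, was at 1523, 1028 and 1288 and 328, 235 and 718 (log2 fold change 1.71 ± 0.22, adjusted p = 0.000122). Nr3c2, the mineralocorticoid receptor, rose by 1.07 (adjusted p = 0.000121) while both replicate 3 libraries stood above the rest, with 1956, 1844 and 5414 in row >3 and 758, 758 and 3500 in border cells. Tsc22d1 (0.89), Esyt2 (0.88) and the carrier Slc22a23 (1.06) completed the 15, together with the 8 genes of ER, Golgi and glycans given above. These calls held with each single library left out.

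The step from border to row >3 was set beside the step from centre to border, which shares the 3 border libraries and is therefore given only as values. In the latter 620 genes (2.32%) were called, 415 higher (1.55%) and 205 lower (0.767%). Crypt base stem cell genes had a median log2 fold change of -1.58 in the step to row >3 and -0.91 in the step to border, where 6 of 16 were called lower. S phase genes had -1.0 and -0.32, with 25 and 2 of 28 called lower, and G2/M genes had -0.61 and -0.29, with 18 and 2 of 27. ER genes had 0.70 and 0.31, with 41 and 3 of 57 called higher, ER to Golgi genes 0.69 and 0.30, with 38 and 1 of 50. Brush border genes had 0.65 and 0.85, with 8 called higher in either step, and digestive enzymes 0.92 and 1.03, with 7 and 4 of 17. Cdkn1a had log2 fold changes of 1.04 and 2.58, Klf4 1.28 and 1.08, Myc -1.30 and -0.21, and Edem3 1.28 and 0.39. Medians of S phase, ER and ER to Golgi genes were larger in size in the step from border to row >3, which was not tested as a difference. The ER and ER to Golgi lists were made after values had been seen, so no difference between the steps can be read from their medians. The G2/M median of the step to row >3 was -0.41, -0.33 and -1.27 in replicate pairs 1 to 3. It was -0.35 without all SI libraries of replicate 3, while the -0.29 of the step to border was taken with them. SI centre replicate 3 also had LI genes, with Car1 at 1668 normalised counts against 0 and 6.45 in replicates 1 and 2 and a sum of 12755 against 1779 and 4360.

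The same step in the LI, which shares no library with the SI, had fewer calls. There 18 genes (0.0674%) were called, 6 higher (0.0225%) and 12 lower (0.0449%), and 2419 (9.05%) had an unadjusted p under 0.05. The LI count was 0 without LI row >3 replicate 1 or 3 or any 1 of the LI border libraries. It was 33 without SI border replicate 2, 95 without SI row >3 replicate 3 and 78 without SI border replicate 3, which enter through the shared estimate of the spread. Without all SI libraries of replicate 3 it was 401 of the 26181 genes tested there, 237 higher and 164 lower. Of 16 stem cell genes 10 were lower in that setting. Higher there were 11 of 57 ER, 10 of 50 ER to Golgi and 12 of 50 glycan genes. Crypt base stem cell genes had -1.58 in the SI and -0.64 in the LI, S phase genes -1.0 and -0.39, with all 28 genes negative in either site, and G2/M genes -0.61 and -0.34, with all 27 negative. ER genes had 0.70 and 0.28, with 51 of 57 positive in the LI, glycan genes 0.86 and 0.37, goblet genes 1.55 and 0.77 and digestive enzymes 0.92 and -0.05. The ER and glycan lists were made after values had been seen, so a difference between the sites cannot be read from their medians.

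**Figure D5:**
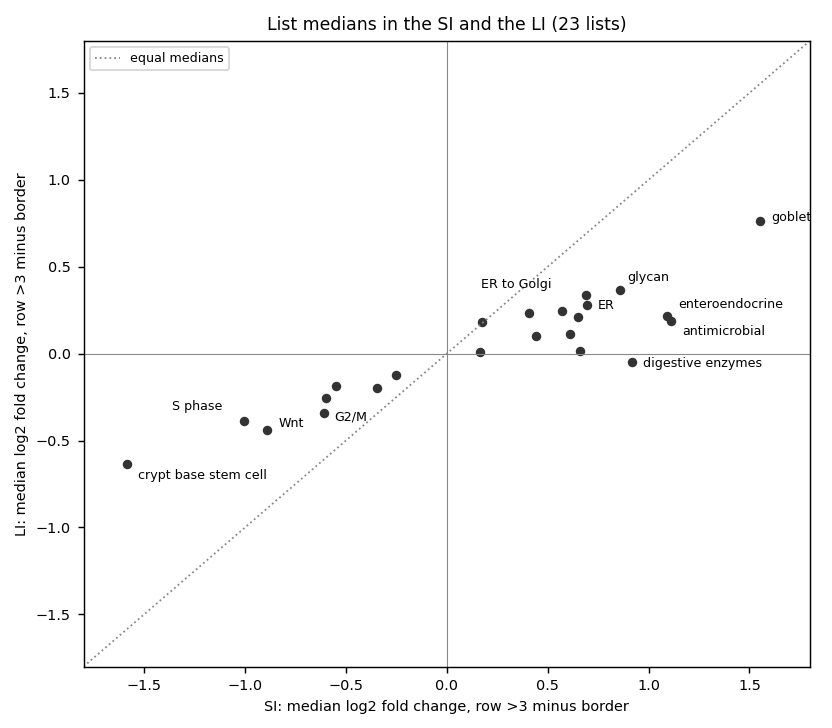
Median log2 fold change of row >3 against border cells in the SI (horizontal axis) and the LI (vertical axis) for 23 gene lists, each a point, with a dotted line where the medians are equal. Stem cell genes (-1.58 in the SI, -0.64 in the LI) and goblet genes (1.55 and 0.77) lie farthest from 0, and most points lie nearer to 0 on the LI axis.

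The difference between the sites in this step was tested in the same fit. With edgeR 0 genes were called (0%), while 1699 (6.36%) had an unadjusted p under 0.05. With DESeq2 183 genes were called with the replicate block, 98 higher and 85 lower in the SI, and 0 without it, and with the older variance estimate of edgeR (its legacy option) 50 were called. Phgdh had the smallest adjusted p in edgeR, 0.0815, with a log2 fold change of -2.21 ± 0.21 in the SI and -0.49 ± 0.16 in the LI. It was at 252, 314 and 225 normalised counts in LI row >3 and 381, 430.4 and 307 in LI border cells. Next came Gas7 (-2.03 in the SI and -0.73 ± 0.16 in the LI), Cdca7 (-1.65 and -0.61 ± 0.14), Fyn (-1.49 and 0.42 ± 0.24), Stmn1 (-1.36 and -0.52 ± 0.12) and Hmgn1 (-1.12 and -0.29 ± 0.12), each at an adjusted p of 0.38. Fyn, a Src family kinase, was the only one of these 6 with opposite signs, and its SI call was lost without row >3 replicate 1 (adjusted p = 0.0548).

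The count of differences between the sites changed with replicate 3 of the SI. It was 257 without SI row >3 replicate 3, 10 without SI border replicate 3 and 391 without all SI libraries of replicate 3, with 306 more positive and 85 more negative in the SI. In the last setting 1.49% of all genes tested were called as different between the sites. There 21 of 57 ER, 13 of 50 ER to Golgi and 18 of 50 glycan genes were called as more positive in the SI. None of them was called as more negative. These 3 lists were made after values had been seen, so a change particular to the SI cannot be read from their counts. Among other lists 4 of 16 stem cell and 3 of 21 Wnt genes were called as more negative, and 3 of 10 epithelial genes as more positive. In the fit of all libraries none of these was called.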

How the data were processed

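RNA from sorted cells was made into stranded full-length libraries and sequenced as paired reads. The authors demultiplexed with bcl2fastq, trimmed with Skewer and aligned with STAR to mm10. For the annotation release and the strand setting used in counting, the answer is not given in the sources used here. The deposited count table holds whole reads for 43346 genes. The deposited normalised values (a signal) are these counts divided by 1 DESeq2 size factor per library, for the 24814 genes with a summed count of 2 or more, and they are the per-library values printed here.

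Counts of the 26717 genes with a mean count above 0 were tested with the quasi-likelihood F-test of edgeR 4.0.16 in R 4.3.3 (TMM factors, robust dispersion, Benjamini-Hochberg adjustment, threshold 0.05). All 18 libraries entered 1 fit with a mean for each of the 6 groups and the replicate number as a block within each site. The numbers were taken to pair the libraries because deviations from group means, over 12977 genes, correlated at 0.429, 0.542 and 0.678 between the same numbers and each library correlated best with its own, though border replicate 1 correlated nearly as well with row >3 replicate 2 (0.417). SE is the log2 fold change divided by the root of F. On simulated counts of 25797 genes the fit recovered 1.49%, 13.4% and 95.5% of 1.5-, 2- and 4-fold changes, so small changes can be missed. The simulated spread was set by hand and the changed genes were drawn from well-counted genes only. These shares are therefore not the sensitivity of the test on the real counts.

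Named genes are up to 15 per direction with the smallest adjusted p and 1 sign in all pairs, called members of the lists, up to 3 members not called per list, the genes the study stained and up to 6 genes for the difference between sites. The members and lists were chosen with earlier results of these data known. The ER, ER to Golgi, glycan, ribosome and serine lists, the genes picked within the rule and the genes whose promoters are printed were chosen after values were seen, as were immune and stromal genes named for being at 0, Agr2 and Car1. Gene positions are from GENCODE on GRCm38, by identifier for 26402 genes. Promoters are from RefSeq, and those searched do not cover every chromosome. Alternatives were another tool (DESeq2 1.42.0), scaling, filter, sample set and block, and each library left out.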

Additional observations from a re-analysis of the deposited data

How the results depend on the processing

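Of 26717 genes, 2612 were called between SI row >3 and border cells, 93 passed the thresholds of the volcano plots, 18 were called in the LI and 0 differed between the sites, in edgeR with the replicate block. Without the replicate block these counts were 431, 60, 0 and 0, and 430 of the 431 were among the 2612. Without the block 70 of the 120 calls of named genes were lost. With the 6 SI row >3 and border libraries alone the first 2 counts were 985 and 68 with the block and 0 and 18 without it, where 2670 genes had an unadjusted p under 0.05. With the 9 SI libraries they were 1232 and 61. DESeq2 with the block gave 3543, 310, 263 and 183, and without it 1304, 87, 0 and 0. Asking for a log2 fold change beyond 1 left 842 called. Leaving out 1 library or all SI libraries of 1 number gave 890 to 3284, 45 to 236, 0 to 401 and 0 to 391. The LI count was 29 with a stricter filter on low counts, 7 with no filter and 154 with the older variance estimate of edgeR. The difference between sites was 50 with that estimate and 1 with library size as the only scaling. No gene among the 2612 that was also called in another setting changed its sign there.

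Library size as the only scaling moved the median of genes at 1 CPM or more from 0.02 to -0.13 and the share of calls that were higher from 55.7% to 31.9%. It moved 5 of the 36 list medians, among them S phase genes (-1.16), ribosome biogenesis (-0.71) and serine and nucleotide synthesis (-0.75).

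Of the 120 named genes called, 83 kept the call without each of the 6 libraries and 37 lost it at least once. The sign of 8 genes that were not called reversed in some settings, with these lowest and highest values over settings that leave out 1 library or all SI libraries of 1 number. Efnb3 ran from -1.45 to 0.37, the latter without all SI libraries of replicate 1 (0.057 without row >3 replicate 1 and 0.0023 without border replicate 2), Prom1 from -0.25 to 0.29, the latter without all SI libraries of replicate 2 (-0.10 with library size only), Gkn3 from -6.48 to 2.96, Ccne1 from -0.62 to 0.14, Chga from -0.10 to 0.66, Defa24 from -1.15 to 0.070 and Dclk1 from -1.71 to 0.41. Hnf4a was at -0.043 with library size only. The cause of these shifts was not tested.

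The labels tie no library to a mouse, and 3 libraries a group limit every test. Depth limits genes at a few normalised counts in all 6 libraries, such as Cd3e, where no difference was called.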

Other observations

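Genes of antigen presentation by MHC class II, which crypt cells can express, had negative log2 fold changes for all 7 tested, with a median of -0.58, and 2 were called lower (4.33% of all genes tested were). The count was 4 without all SI libraries of replicate 3, 3 without row >3 replicate 3 or border replicate 1, 1 without border replicate 3 and 0 without row >3 replicate 1 or 2 or border replicate 2. H2-Eb1, a chain of the complex, was at 1200, 1069 and 267 normalised counts in row >3 replicates 1 to 3 and 2101, 2512 and 281 in border replicates 1 to 3 (log2 fold change -0.82 ± 0.20, adjusted p = 0.0112). Ciita, the factor that switches these genes on and whose locus overlaps another gene, was at 536, 475 and 223 and 956, 1253 and 307 (log2 fold change -1.0 ± 0.25, adjusted p = 0.0128). Both were lower in each pair. The H2-Eb1 call was lost without row >3 replicate 1 or 2 or border replicate 2 (adjusted p from 0.12 to 0.164) and the Ciita call without row >3 replicate 1 or 2 or border replicate 2 or 3 (adjusted p from 0.057 to 0.166). In the LI the median of the 7 genes was -1.01. The summed level of immune cell genes, with Ptprc among them, was lower in row >3 as well, and its part in these values was not tested.

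Of 18 genes of mitochondrial fatty acid oxidation 4 were called higher and 1 lower (5.44% and 4.33% of all genes tested were), with a median of 0.31. Acadl, a dehydrogenase of long-chain fatty acids, was at 1204, 1072 and 2821 normalised counts in row >3 and 604, 599 and 1845 in border cells (log2 fold change 0.82 ± 0.13, adjusted p = 0.000577). The higher count was 1 without row >3 replicate 1 or border replicate 1 and 2 without border replicate 2, and it was 4, with 1 lower, without all SI libraries of replicate 3. Of 16 genes of the villus tip and its zones 6 were called higher (5.44% of all genes tested were) and 0 lower, with a median of 0.54. The count was 3 without row >3 replicate 1 or border replicate 1 and 7 without all SI libraries of replicate 3. Tgfbi, a secreted adhesion protein, was at 2250, 631 and 1104 and 184, 197 and 726 (log2 fold change 1.78 ± 0.43, adjusted p = 0.0245), and its call was lost without border replicate 2 (adjusted p = 0.118). Of 10 heat shock genes 1 was called higher and 3 lower, against 5.44% and 4.33% of all genes tested, and there were 0 higher and 1 lower without row >3 replicate 1 or border replicate 2, 0 and 2 without border replicate 1, 0 and 3 without row >3 replicate 2, 1 and 4 without border replicate 3, and 1 and 2 without row >3 replicate 3 or all SI libraries of replicate 3. Of 14 apoptosis regulators 2 were called higher and 1 lower, against 5.44% and 4.33% of all genes tested. There were 0 and 0 without row >3 replicate 1 or border replicate 2, 0 and 1 without border replicate 1, 1 and 0 without row >3 replicate 2, 3 and 2 without row >3 replicate 3, and 3 and 1 without border replicate 3 or all SI libraries of replicate 3.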
